A study of Gallus gallus with 12 samples.

Results

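ALX1, ALX4, PRRX1, PRRX2 and PITX1 are paired homeobox genes of the embryonic face, and their signals were followed in chicken maxillary prominences across 4 bead treatments. They were chosen by name, as frontonasal ALX genes beside PRRX and PITX genes of the arches, with earlier results of these data known. Shares of all probe sets given beside their counts are therefore a description and not a test of the set. Every probe set that the array annotation assigns to these genes was included. The members are 5 of the 13008 genes named on the array and have 11 of its 38535 probe sets: 1 each for ALX1 and ALX4, 3 for PRRX1, 4 for PRRX2 and 2 for PITX1. Among these 11, 8 probe sets from 4 genes passed the filter on dim probe sets and were tested (1 for ALX1, 3 for PRRX1, 2 for PRRX2 and 2 for PITX1), and ALX4 had none.

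The study used an Affymetrix chicken array to ask which genes specify the midline of the face. All embryos, controls included, received 2 beads at Hamburger-Hamilton stage 15 (25 somites), placed between the eye and the mandibular arch. A 200 µm Affigel blue bead carried Noggin at 1 mg/ml or the buffer Tris, and a 100 µm AG1X2 bead carried all-trans retinoic acid (RA) at 1 mg/ml or its solvent DMSO. Maxillary pieces, mesenchyme with its epithelium, were collected 16 h later at stage 18 and pooled by 12 to 15, with 3 pools and 3 arrays per group. The control group had Tris+DMSO beads, and the treated groups had Noggin+DMSO, Noggin+RA or Tris+RA beads. Each array therefore averages several embryos and all cell types of the piece, and in such samples fewer cells of a type and less RNA per cell cannot be told apart.

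The paired homeobox genes encode transcription factors that bind DNA through a homeodomain of the type first described in the Drosophila gene paired. ALX1 and ALX4 are aristaless-like factors of the frontonasal mesenchyme, which builds the midface, and loss of either can cause frontonasal dysplasia in humans. PRRX1 and PRRX2 mark mesenchyme of the facial prominences and limb buds, and PITX1 acts in the first arch, the oral ectoderm and the hindlimb. Noggin binds BMP ligands outside the cell and keeps them from their receptors, while RA acts through nuclear receptors that bind DNA.

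Intensities carried the depositors' scaling, with a trimmed mean of 150.03 on every array. The level taken as background, the 95th percentile of probe sets for viruses, lay between 31.1 and 49.0. Correlations of log2 values between arrays were 0.976 to 0.982 within groups (12 pairs) and 0.960 to 0.980 between groups (54 pairs). The 5' over 3' ratio of the GAPDH control, a measure of how complete the labelled RNA was, was 0.695 ± 0.0409 (SD, n = 6) on Noggin arrays and 0.815 ± 0.0266 (n = 6) on Tris arrays, with an exact permutation p of 0.00216, the smallest that 6 arrays against 6 allow. The GAPDH ratios of the 2 kinds of array did not overlap. The part of this ratio in any Noggin difference therefore cannot be told apart from Noggin itself in these arrays. Ratios of the EF1A control (0.522 to 0.656 on Noggin arrays, 0.615 to 0.706 on Tris arrays) overlapped, as did those of actin (0.418 to 0.576 and 0.513 to 0.550). Of the 11 mesenchyme genes measured as a check on the tissue, 10 were above background on every array. The labels do not say that the pools came from separate batches of embryos, and the p-values measure the spread between these pools.

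ALX1, the frontonasal member of the set that gave a signal, was above background on all 12 arrays. Its intensity was 267, 397 and 382 on the 3 control arrays. With Noggin alone it was 334, 222 and 218, values that overlapped those of the control. With RA alone it was 528, 1175 and 742, all higher than the control. With both factors it was 1001, 659 and 1339, again all above the control and above Noggin alone. In order of group means, ALX1 was highest in Noggin+RA (999.9 ± 340.2, SD, n = 3), followed by Tris+RA (815 ± 330.0), Tris+DMSO (348 ± 71.4) and Noggin+DMSO (258 ± 65.6). The 2 RA groups differed by a log2 of 0.31 (SE 0.309, 95% interval -0.37 to 0.98, limma adjusted p = 0.699), and the 2 groups without RA by -0.42 (SE 0.309, -1.09 to 0.26, limma adjusted p = 0.427), so neither pair of neighbours in this order differed beyond its spread.

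Of the 5 pairwise comparisons, ALX1 passed the test in 1, Noggin+RA against Noggin+DMSO, with a rise of 3.63-fold (log2 1.86, SE 0.309, limma adjusted p = 0.0313). Fold changes here are on the scale of intensity + 16, and a call means a p below 0.05 after Benjamini-Hochberg adjustment across the 21354 probe sets tested. The difference between Noggin+RA and the control was 2.72-fold (log2 1.44, SE 0.309, limma adjusted p = 0.0574), and that between Tris+RA and the control 2.19-fold (log2 1.13, SE 0.309, 95% interval 0.46 to 1.81, limma adjusted p = 0.383). Averaged over arrays with and without Noggin, RA raised ALX1 2.82-fold (log2 1.50, SE 0.219, limma adjusted p = 0.0141). The average difference with Noggin was -0.05 (SE 0.219, 95% interval -0.53 to 0.42, limma adjusted p = 0.884).

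The ALX1 calls differ in how much they rest on single arrays. The average RA rise passed without any 1 of the 12 arrays (adjusted p 0.00639 to 0.0462). The rise over Noggin alone ended when Noggin+RA replicate 1 or 3, Noggin+DMSO replicate 2 or 3, Tris+RA replicate 3 or Tris+DMSO replicate 2 was left out (adjusted p 0.0514 to 0.129), while the difference from the control passed without Noggin+RA replicate 2 (0.0459), Tris+RA replicate 1 (0.0458) or Tris+RA replicate 2 (0.0398).

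ALX4, the other aristaless-like member, read between 6.24 and 20.5 on the 12 arrays and was above background on 0 of them. Its probe set could not be tested, and no level or direction is given for ALX4 beyond the statement that it was not well above background in any group.

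**Figure D1:**
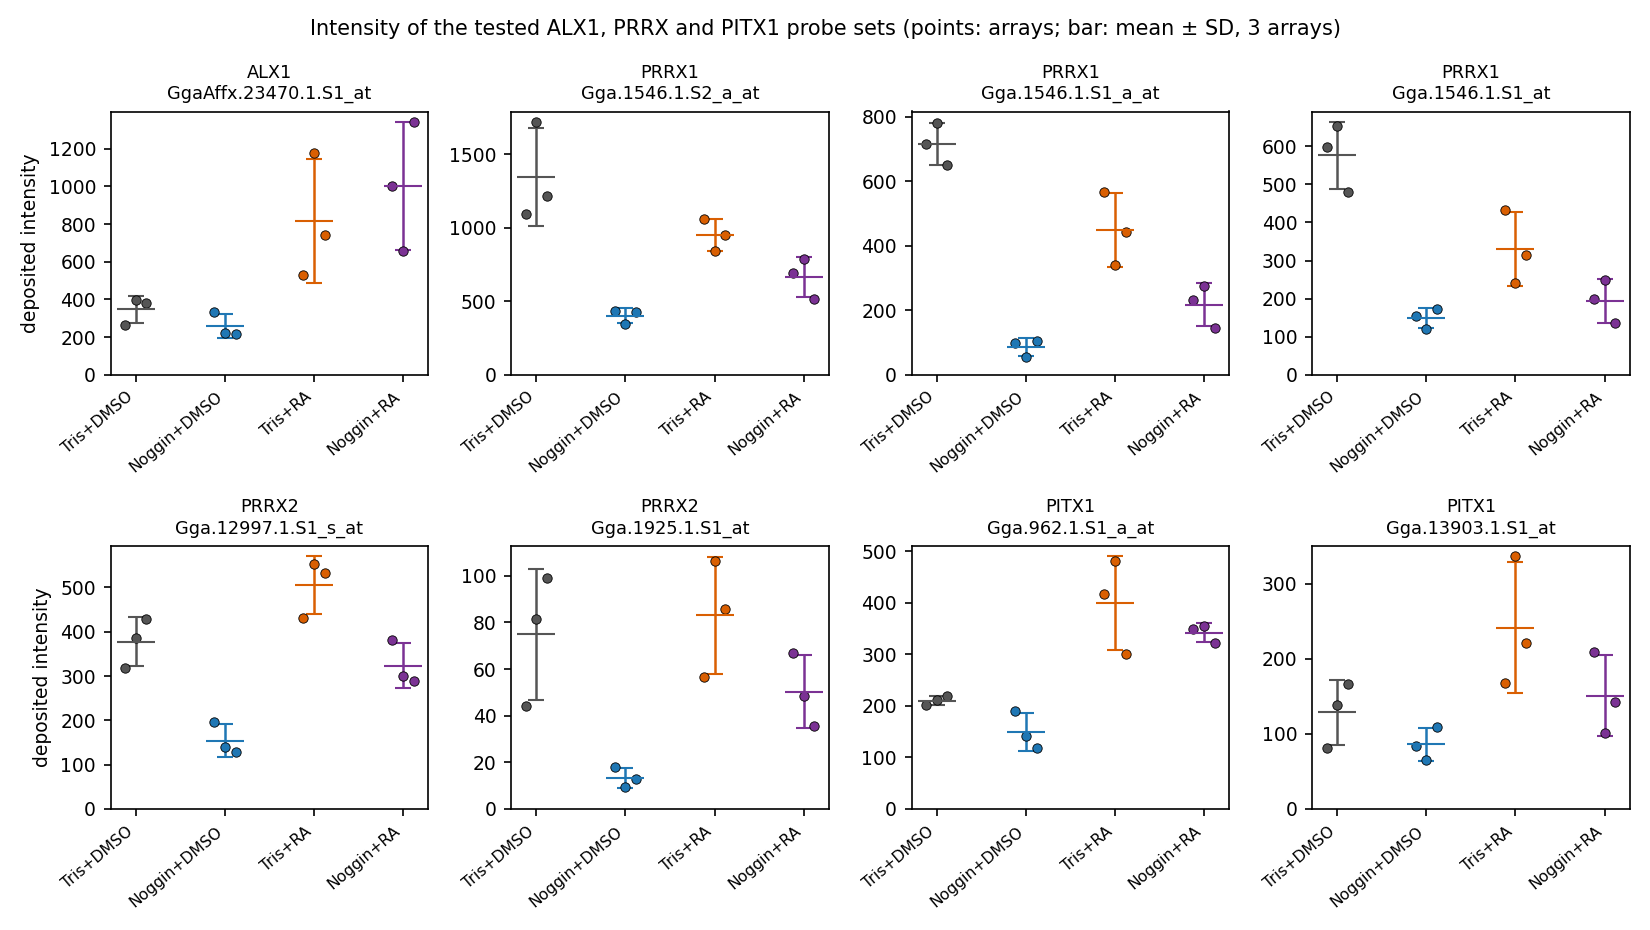
Deposited intensity (linear axis from 0) of the 8 tested probe sets of ALX1, PRRX1, PRRX2 and PITX1 by treatment group, with a point for each array and a bar for the mean ± SD over 3 arrays. ALX1 lies between 528 and 1339 on the RA arrays and between 218 and 397 on the others, whereas the brightest PRRX1 probe set is lowest with Noggin alone, at 342 to 434.

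PRRX1, a factor of facial and limb mesenchyme whose loss in mice disturbs the jaw and palate, was lowest with Noggin alone by each of its 3 probe sets. By the brightest of them it was 1092, 1721 and 1213 on the control arrays. It was 434, 342 and 425 with Noggin alone, all below every other array. It was 1060.1, 840.5 and 947 with RA alone, and the highest of these lay just under the lowest control. With both factors it was 690.0, 783 and 516, between the Noggin arrays and the RA arrays with no overlap on either side. The group means ran from Tris+DMSO (1342 ± 334) through Tris+RA (949 ± 109.8) and Noggin+RA (663 ± 136) to Noggin+DMSO (400.5 ± 50.8), each SD over 3 arrays.

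Noggin alone lowered PRRX1 3.22-fold by this probe set (log2 -1.69, SE 0.193, limma adjusted p = 0.00218). The other probe sets gave falls of 7.37-fold (log2 -2.88, SE 0.26, limma adjusted p = 0.000592) and 3.60-fold (log2 -1.85, SE 0.238, limma adjusted p = 0.00277). The 7.37-fold value came from a probe set that read 717, 779.6 and 649.6 in the control and 97.3, 54.1 and 106 with Noggin. The 3 probe sets thus gave the same direction, and the largest fall differed from the others by more than the standard errors. With the GAPDH ratio of each array as a covariate the call by the brightest ended (log2 -2.05, SE 0.469, limma adjusted p = 0.495). In that fit 0 of all probe sets were called. The ratios of Noggin and Tris arrays do not overlap, so the fit cannot separate the ratio from Noggin. Against the control, 5 of the 8 member probe sets tested fell with Noggin alone, the 3 of PRRX1 and both of PRRX2, where 1.99% of all probe sets tested fell.

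With both factors PRRX1 was also below the control, 1.99-fold by the brightest probe set (log2 -0.99, SE 0.193, limma adjusted p = 0.0424) and 3.23-fold and 2.87-fold by the others (limma adjusted p = 0.0178 and 0.0186). These were the 3 of 8 member probe sets that fell in Noggin+RA, against 0.3% of all probe sets. The call by the brightest probe set held only without Noggin+RA replicate 2 or Tris+RA replicate 1, and each of the other 10 omissions gave an adjusted p between 0.0526 and 0.174. It also ended under 6 of the other settings, among them quantile normalization (0.0554).

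RA alone gave lower PRRX1 values by all 3 probe sets, without a call. The brightest differed by a log2 of -0.47 (SE 0.193, 95% interval -0.89 to -0.05, limma adjusted p = 0.719), and the others by -0.68 (SE 0.26, adjusted p = 0.679) and -0.80 (SE 0.238, adjusted p = 0.442). In the presence of Noggin the sign of the RA difference was the opposite, at 0.69 (SE 0.193, 95% interval 0.27 to 1.12, limma adjusted p = 0.204) for the brightest probe set. A second probe set gave 1.19 (SE 0.26, adjusted p = 0.0853), with no overlap between the groups, and the remaining one 0.33 (SE 0.238, adjusted p = 0.732), with overlap. The interaction, which is the RA difference with Noggin minus that without, was 1.16 (SE 0.273, 95% interval 0.57 to 1.76, limma adjusted p = 0.473) for the brightest probe set, 1.87 (SE 0.368, adjusted p = 0.31) and 1.13 (SE 0.337, adjusted p = 0.655) for the others. It did not pass for any of them, and averaged over both Noggin states the RA difference of the brightest probe set was 0.11 (SE 0.137, 95% interval -0.19 to 0.41, limma adjusted p = 0.86). Adding Noggin on top of RA gave a further -0.52 (SE 0.193, 95% interval -0.94 to -0.10, limma adjusted p = 0.279).

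PRRX2, the close relative of PRRX1 that shares its mesenchymal domains and partly covers for it in mice, fell with Noggin too. Its brightest probe set was above the control with RA alone, the opposite direction to PRRX1, without a call for either gene. The difference between the genes was not tested. By this probe set PRRX2 was 319, 385 and 428 in the control and 196, 140.15 and 128 with Noggin alone, with no overlap. With RA alone it was 431, 553 and 533, all higher than the control, though the lowest exceeded the highest control by little. With both factors it was 381, 301 and 289, which overlapped the control. In order of means, PRRX2 was at 506 ± 65.6 in Tris+RA, 377 ± 55.0 in Tris+DMSO, 324 ± 50.1 in Noggin+RA and 154 ± 36.2 in Noggin+DMSO (SD, n = 3). By the maker's naming this probe set may also match other transcripts, so its signal is less surely that of PRRX2 alone.

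Noggin alone lowered PRRX2 2.32-fold (log2 -1.22, SE 0.175, limma adjusted p = 0.00443). A second, dimmer probe set was between 44.0 and 98.9 in the control and between 9.26 and 17.9 with Noggin, where 0 of 3 arrays were above background. It was at least 1.46-fold lower. Its call (limma adjusted p = 0.00885) is from the intensities as read, and the limit itself was not tested. The brightest probe set gave -0.70 with the GAPDH ratio as a covariate (SE 0.403, limma adjusted p = 0.756), which ended its call. As for PRRX1, 0 of all probe sets were called in that fit. The 2 remaining PRRX2 probe sets read 1.10 to 25.5, above background on 0 arrays, and were not tested. In the presence of Noggin, RA raised PRRX2 2.01-fold (log2 1.01, SE 0.175, limma adjusted p = 0.0391). The dimmer probe set was at least 1.08-fold higher there, without a call on the intensities as read (limma adjusted p = 0.0992). With both factors the gene did not differ from the control beyond its spread, at -0.21 (SE 0.175, 95% interval -0.59 to 0.17, limma adjusted p = 0.602).

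By the brightest probe set, RA alone gave a PRRX2 difference of 0.41 (SE 0.175, 95% interval 0.03 to 0.79, limma adjusted p = 0.743), and the average RA effect was a rise of 1.63-fold (log2 0.71, SE 0.124, limma adjusted p = 0.0265). The dimmer probe set gave 0.14 with RA alone (SE 0.263, limma adjusted p = 0.983), with overlapping groups. Its average RA difference was also a rise, without a call (limma adjusted p = 0.193), and included Noggin+DMSO arrays at background. For the brightest probe set, Noggin+RA against Tris+RA gave -0.62 (SE 0.175, limma adjusted p = 0.185), with all 3 arrays below those with RA alone. The call against Noggin alone ended without any 1 of the Noggin+RA arrays, Noggin+DMSO replicate 2 or 3, Tris+RA replicate 3 or Tris+DMSO replicate 2 (adjusted p 0.0615 to 0.141). The average RA call ended without Noggin+RA replicate 1, Noggin+DMSO replicate 2 or 3, either of Tris+DMSO replicates 1 and 2, or either of Tris+RA replicates 2 and 3 (0.0539 to 0.0736).

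PITX1, a bicoid-related factor of the first arch and oral ectoderm that is needed for the mandible and hindlimb in mice, had its highest values in the RA groups. The brighter probe set read 201, 211 and 218 in the control. It read 190.3, 142 and 118 with Noggin alone, all below the control. It read 418, 481 and 300.3 with RA alone and 349, 356 and 322 with both factors, and these 6 values lay above all 6 without RA. The means were 399.9 ± 91.9 in Tris+RA, 342 ± 18.1 in Noggin+RA, 210.1 ± 8.57 in Tris+DMSO and 149.8 ± 37.0 in Noggin+DMSO (SD, n = 3).

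RA raised PITX1 2.19-fold in the presence of Noggin (log2 1.13, SE 0.179, limma adjusted p = 0.0252) and 1.99-fold on average (log2 0.99, SE 0.127, limma adjusted p = 0.0067). The difference with RA alone was 1.81-fold (95% interval of log2 0.46 to 1.25, limma adjusted p = 0.23), and with both factors against the control 1.58-fold (log2 0.66, SE 0.179, limma adjusted p = 0.123). The interaction was 0.28 (SE 0.254, limma adjusted p = 0.96), and Noggin+RA differed from Tris+RA by -0.19 (SE 0.179, 95% interval -0.58 to 0.20, limma adjusted p = 0.672). Noggin alone gave -0.47 (SE 0.179, 95% interval -0.86 to -0.08, limma adjusted p = 0.136).

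The dimmer PITX1 probe set read 129 ± 43.2 in the control, 86.0 ± 22.3 with Noggin, 242 ± 86.7 with RA and 151 ± 54.2 with both (SD, n = 3), and passed in 0 of the 8 comparisons. Its average RA difference was 0.75 (SE 0.217, limma adjusted p = 0.198), the same direction as the brighter one. The rise of the brighter probe set over Noggin alone ended without any 1 of the 3 Noggin+RA arrays or Noggin+DMSO replicate 2 or 3 (adjusted p 0.0616 to 0.111), while the average RA rise passed without any 1 of the 12 arrays (0.00659 to 0.0254).

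**Figure D2:**
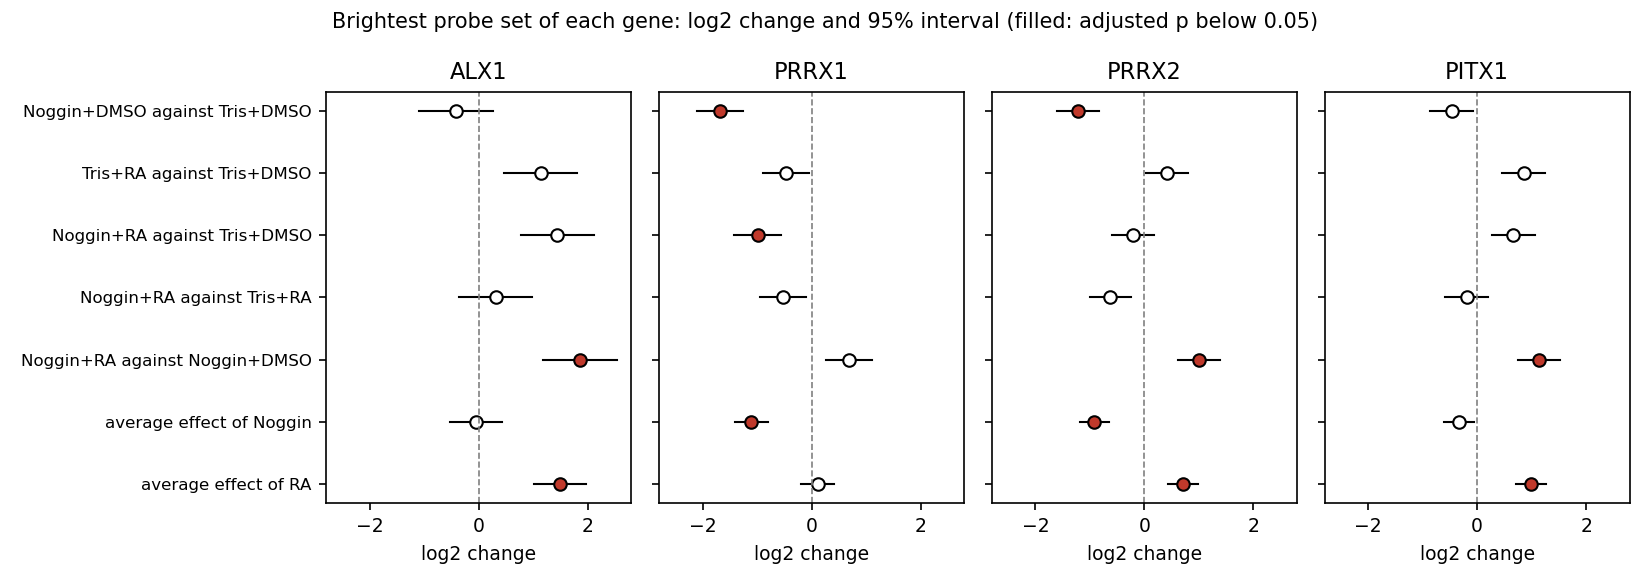
Log2 difference on the scale of intensity + 16, with its 95% interval, for the brightest probe set of ALX1, PRRX1, PRRX2 and PITX1 in 7 comparisons, filled where the adjusted p is below 0.05. PRRX1 (-1.69) and PRRX2 (-1.22) are filled left of 0 with Noggin alone, and ALX1 (1.86), PRRX2 (1.01) and PITX1 (1.13) are filled right of 0 for RA in the presence of Noggin.

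Set side by side, the 4 measured genes gave different orders of the group means. Noggin+DMSO was the lowest group mean for each of the 8 tested probe sets, Tris+DMSO was the highest for PRRX1, Tris+RA for PRRX2 and PITX1, and Noggin+RA for ALX1. By the brightest probe sets, the 2 highest groups of a gene did not differ by a call in any of the 4 genes (limma adjusted p 0.672 to 0.743). By limma, RA against the control called 0 of the 8 (0% of all 21354 probe sets), and 7 of 8 had an unadjusted p below 0.05, as did 6.41% of all probe sets. In 4 of the 8 (ALX1, both of PITX1 and the brightest of PRRX2) all RA arrays were above all controls, where 4.91% of all probe sets showed this, and in 3, those of PRRX1, all were below, where 5.44% did.

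With Noggin present on both sides, RA raised 3 of the 8 member probe sets, the brightest of ALX1, PRRX2 and PITX1, against 0.229% of all probe sets. These calls ended without the filter on dim probe sets (adjusted p 0.0522 to 0.0739) and with only the groups compared in the fit (0.0737 to 0.119). With the probe sets of a gene averaged, PRRX2 (adjusted p = 0.0535) and PITX1 (0.0806) did not pass there, and PRRX2 did not pass in the average over both Noggin states (0.0685). Averaged over both Noggin states it raised these 3 as well, against 0.464%. The average effect of Noggin was a fall of 5 of 8, against 4.47% of all. These were the PRRX1 probe sets, with 2.15-fold (log2 -1.10, SE 0.137, limma adjusted p = 0.0014) by the brightest, and those of PRRX2. The brightest PRRX2 probe set gave 1.89-fold (log2 -0.92, SE 0.124, limma adjusted p = 0.00205). The dimmer PRRX2 probe set was above background on 0 of 3 Noggin+DMSO arrays, which enter its average. Noggin on top of RA called 0 of the 8 (0.215% of all), 4 of them had an unadjusted p below 0.05 (13.7% of all), and 3 lay below RA alone with no overlap (8.39% of all). In Noggin+RA against the control 2 of 8, ALX1 and the brighter PITX1, were above all controls, where 11% of all probe sets were. The interaction called 0 of the 8 (0% of all), and 5 had an unadjusted p below 0.05 (5.97% of all).

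**Figure D3:**
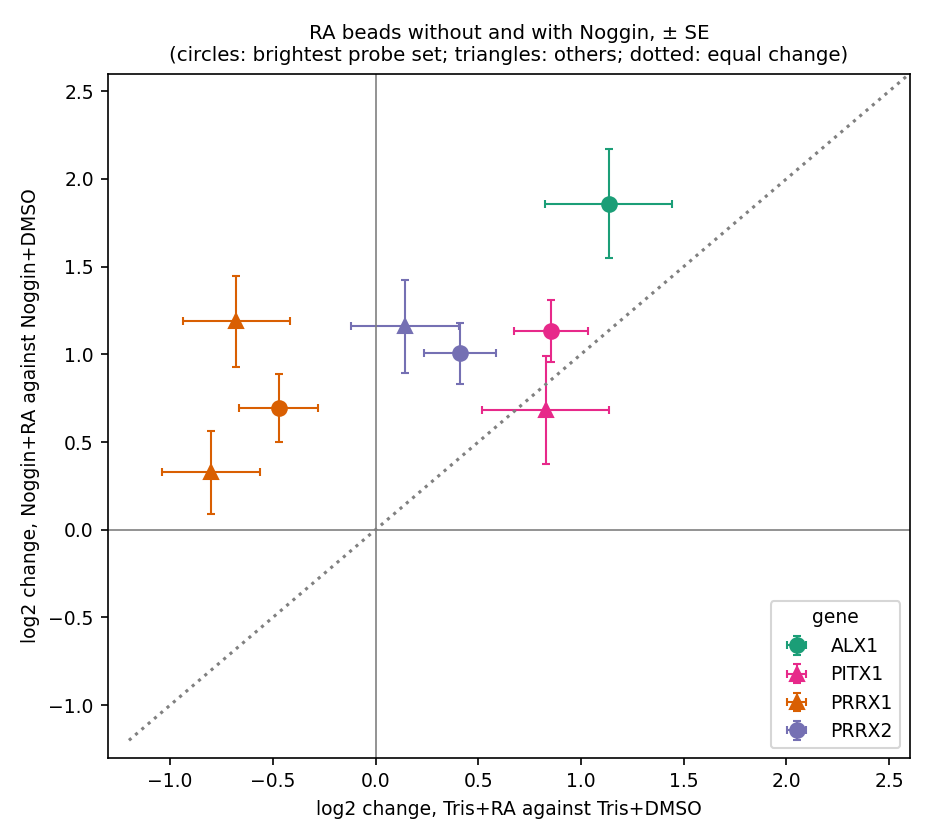
Log2 difference with RA in the absence of Noggin (horizontal axis) against that in its presence (vertical axis) for the 8 member probe sets, each with its SE as bars. Circles are the brightest probe set of a gene, triangles the others, and the dotted line marks equal differences. ALX1 and PITX1 are above 0 on both axes, and the 3 PRRX1 probe sets are at -0.80 to -0.47 without Noggin and at 0.33 to 1.19 with it; the 2 axes rest on separate arrays.

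Markers of other cell types moved with some of the treatments. The summed intensity of 7 red blood cell genes, all above background on every array, was 5668 to 11338 in the control, 12649 to 16101 with Noggin, 8767 to 13522 with RA and 11238 to 13611 with both. The sums with Noggin alone lay above all controls and overlapped those with RA and with both. Noggin alone was also the group with the lowest mean for every tested member probe set. The sum over 12 skeletal muscle genes, 4 of them above background on every array and DES, MYOD1 and MYOG on none, was 781 to 985 in the control, 1006 to 1213 with Noggin, 1164 to 1280.4 with RA and 1377 to 1825 with both. MYL4 (mean 278 in the control and 661 with both) and TNNC1 (175.5 and 392.4) carried most of it, and the sum over the other 10 was 414 to 448 in the control and 452 to 519 with both, with 6 of the 10 means above the control and 4 below. The part of these cells in the results for the 4 genes was not tested.

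The sum over 13 epithelial genes (8 above background on every array, TFAP2C on none) was 5502 to 5985 in the control and 6402.0 to 6841 with Noggin, and it ranged over 5204 to 7107 with RA and 6428 to 7874 with both. EPCAM (mean 2259 in the control and 2779 with Noggin) carried the largest part of the Noggin difference. The means of CDH1, ESRP2, KRT5 and TFAP2C were lower with Noggin than in the control, and those of the other epithelial genes higher. The sum over 15 lens, retina and pigment genes (5 on every array, FOXE3 and PMEL on none) was 1154 to 1375 in the control and 1568 to 1689.8 with Noggin, 935 to 1285 with RA and 1185 to 1536 with both. OTX2, a paired-type gene described further on, carried the Noggin difference of the sum. Over the other 14 genes the sum was 783 to 936 in the control and 798 to 979 with Noggin. Of these 14, 8 had higher means with Noggin alone than in the control, among them SIX3 (71.5 in the control and 144). The other 6 had lower means, among them ASL1 (124 and 80.6). Sums over 10 endothelial genes (7 on every array, EMCN on none) ran from 1675 to 2024 with the groups overlapping.

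The sum over 10 neuronal genes (6 on every array, NEUROG1 on none) was 1505 to 5879.9 in the control, 1654 to 3452 with Noggin, 4174 to 5458 with RA and 3249.9 to 5094 with both. It was thus higher on the arrays with RA alone than on those with Noggin alone, though the control spanned both. Every tested member probe set was also higher on all arrays with RA alone than on those with Noggin alone. These 2 groups were not compared in the fit, and the share of all probe sets that showed this was not counted. NEFM, a neurofilament subunit, had means of 1679, 977, 2673 and 2499 in these groups and carried the largest share. The 11 mesenchyme genes summed to 8675 to 10957 in the control, 8463 to 8560.1 with Noggin, 7262 to 9072 with RA and 7785 to 9128 with both. PRRX1 is itself on this list. Without it the sum was 7463 to 9865 in the control, 8028 to 8218 with Noggin, 6422 to 8011 with RA and 7095 to 8344 with both. With Noggin alone 7 of the other 10 had lower means than the control, among them LHX8 (631 and 213), MSX1 (323 and 153) and TWIST1, a basic helix-loop-helix factor (269 and 184), and 3 had higher means, among them COL3A1 (700.6 and 872). With RA alone 8 of the 10 had lower means than the control and 2 higher, and the counts were the same with both factors. The part of these levels in the results for the 4 genes was not tested either.

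Other genes of the paired class were read on the same arrays. Of 33 further paired-type homeobox genes, 19 were on the array and 11 were tested. With Noggin alone 1 of the 11, OTX2, a factor of the forebrain and anterior head, passed and rose 1.71-fold (log2 0.77, SE 0.158, limma adjusted p = 0.0212), from 420.5 ± 42.9 to 729.4 ± 88.4, where 2.97% of all probe sets rose. This call ended with median centring, with the GAPDH ratio as a covariate, and without Noggin+DMSO replicate 2 or 3 or Tris+DMSO replicate 2, leaving 0 of the 11. The median log2 difference of the 11 was 0.04 and that of all probe sets 0.06. The brightest member probe sets gave -0.42 (ALX1), -0.47 (PITX1), -1.22 (PRRX2) and -1.69 (PRRX1) there, with calls for PRRX2 and PRRX1 only. On average RA lowered OTX2 1.61-fold (log2 -0.69, SE 0.112, limma adjusted p = 0.0201, not called without Noggin+DMSO replicate 2 or 3 or Tris+DMSO replicate 3), the opposite sign to the RA rises of ALX1, PRRX2 and PITX1.

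Of 12 tested genes among 19 other frontonasal and midline factors, 3 rose and 0 fell with Noggin alone (2.97% of all probe sets rose and 1.99% fell), among them TBX22, a T-box factor of the palate, while ALX1 was not called there. Of 15 tested among 30 other factors of the maxillary and first arch mesenchyme, 4 rose and 4 fell with Noggin alone (median -0.26), so the falls of PRRX1 and PRRX2 were accompanied by arch genes in both directions. These 8 calls became 5 without Noggin+DMSO replicate 3 or Tris+DMSO replicate 2. With both factors 1 of these 15 rose and 2 fell, LHX8 and DLX1, homeobox genes of the arch (median -0.57 beside 0.04 for all probe sets, of which 0.51% rose and 0.3% fell). Only 1 of these 3 calls was made without Noggin+RA replicate 3 or without Tris+DMSO replicate 2 or 3. TBX22 was on both lists. In Noggin+RA against Noggin+DMSO, where ALX1, PRRX2 and PITX1 rose, 0 of the 15 arch factors rose and 2 fell, DLX5 and DLX6, and of the 12 frontonasal factors 0 rose and 1 fell, ALDH1A3, an enzyme that makes RA (0.229% of all probe sets rose and 0.215% fell).

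The lists of targets of each signal gave the following counts. Of 14 tested BMP targets, 0 rose and 7 fell with Noggin alone (median -0.93 beside 0.06), where 2.97% of all probe sets rose and 1.99% fell. ID1, an inhibitor of basic helix-loop-helix factors that BMP signalling induces, fell 3.46-fold (log2 -1.79, SE 0.154, limma adjusted p = 0.000592), from 1933 ± 202 to 545 ± 32.5. In Noggin+RA against Noggin+DMSO 2 of the 14 rose, ID1 2.40-fold (log2 1.26, SE 0.154, limma adjusted p = 0.00525) and GATA3, a zinc finger factor, from 40.8 ± 8.35 to 125 ± 23.9, with 1 of 3 Noggin arrays above background. PRRX2, which also fell with Noggin alone, rose in this comparison as well, where 0.229% of all probe sets rose and 0.215% fell. Of 13 tested genes of RA response and metabolism, 4 rose and 1 fell there, among them CYP26C1, which degrades RA, by 3.36-fold (log2 1.75, SE 0.268, limma adjusted p = 0.0229), and CRABP1, which binds it, by 1.64-fold (log2 0.72, SE 0.132, limma adjusted p = 0.0438). Against the control, the median of the 13 with RA alone was 0.55 (beside -0.01 for all probe sets), with no call among them. The brightest member probe sets gave 1.13 (ALX1), 0.85 (PITX1), 0.41 (PRRX2) and -0.47 (PRRX1) there, also without a call.

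The list counts in Noggin+RA against Noggin+DMSO rested on single arrays. The frontonasal call went to 0 in 7 of 12 omissions and the arch calls from 2 to 1 in 7 of 12. The BMP target calls went from 2 to 1 in 8 of 12. The 5 RA calls went to between 0 and 3 in 8 of 12, and to 0 without any 1 of the Noggin+DMSO arrays or without Noggin+RA replicate 1 or 3.

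The genes whose log2 signal followed each member most closely over the 12 arrays were found among 9767 genes, by Pearson correlation of the brightest probe sets. For ALX1 they were CALD1, an actin-binding protein, and CST3, a protease inhibitor (r = 0.953 each), CYP26A1, an enzyme that degrades RA (0.948), PENK, the enkephalin precursor (0.942), and CLIP2, a microtubule linker (0.941). For PRRX1 they were MSX1, a homeobox gene and BMP target (0.969), ATOH8, a basic helix-loop-helix factor (0.951), UCHL5, a deubiquitinase (0.947), WNT5A, a WNT ligand (0.945), and GJA1, a gap junction protein (0.944). The arrays of a group share their treatment, so these values describe the order of the 4 groups as much as single pools.

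For PRRX2 the closest were CRISPLD1 (0.965), FAM49A (0.964), MYOF, a membrane repair protein (0.963), DEPDC1B (0.958) and CCDC59 (0.949). For PITX1 they were KIF26A, a kinesin-like protein (0.921), DACH1, a transcriptional cofactor of the eye and limb (0.912), FGFR2, a fibroblast growth factor receptor (0.900), PENK (0.885) and MEOX2, a homeobox gene of mesoderm (0.882). PENK was on the lists of both ALX1 and PITX1, and none of the 5 genes closest to PRRX1 was among the 5 closest to PRRX2.

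**Figure D4:**
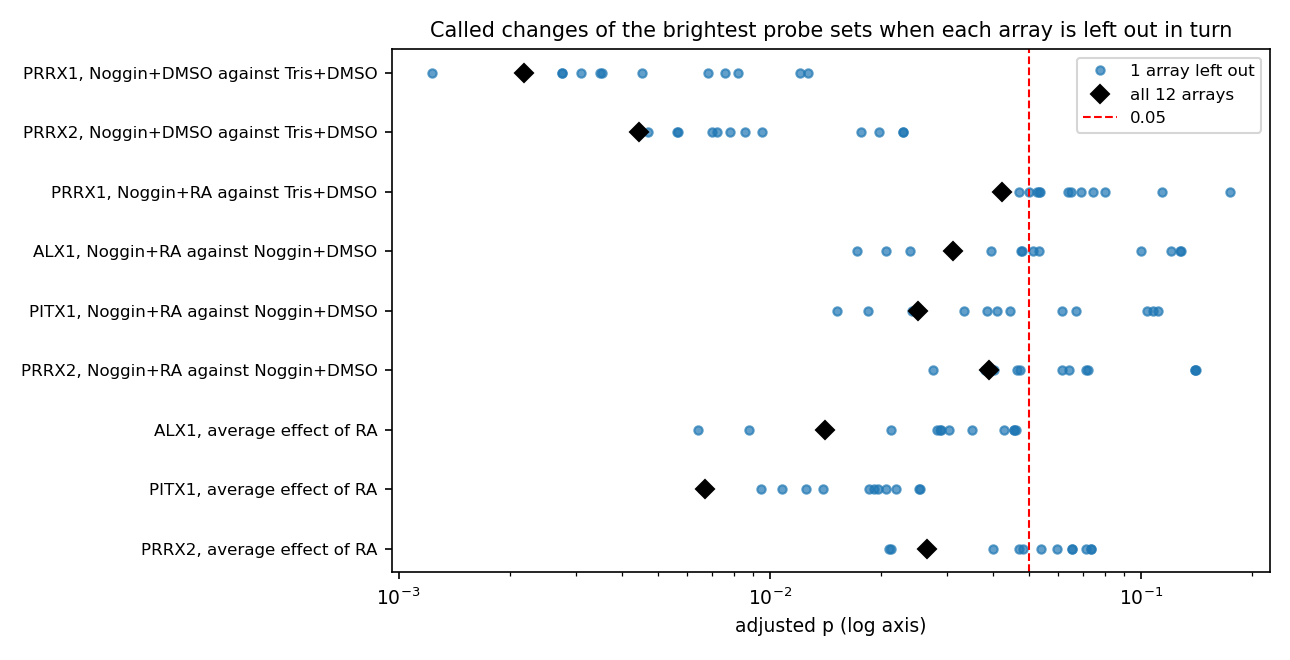
Benjamini-Hochberg adjusted p (log axis) of called member differences when each of the 12 arrays is left out in turn, with diamonds for all 12 arrays and a dashed line at the threshold of 0.05. The falls of PRRX1 (0.00123 to 0.0127) and PRRX2 (0.00471 to 0.0229) with Noggin alone stay below the line. The differences of Noggin+RA against Noggin+DMSO cross it. So do PRRX1 in Noggin+RA against the control (0.0471 to 0.174) and PRRX2 for average RA (0.0210 to 0.0736).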

How the data were processed

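The table holds probe set intensity on a linear scale, as deposited, from 12 one-colour arrays hybridised with biotin-labelled RNA (500 ng of total RNA per pool, two-cycle labelling, per the labels' protocols). Every deposited column had the same trimmed mean (2% off each end), so the authors had scaled it. No source used here gives the summarization method or genome build. Chicken probe sets (37693) above the array's median on at least 3 arrays were kept (21354), and log2(intensity + 16) was fitted with limma 3.58.1 in R 4.3.3, with 1 mean per group over all 12 arrays, two-sided tests and Benjamini-Hochberg adjustment. Where at most 1 array of the dimmer group was above background, a fold is a lower limit. Summaries used Python 3.11.15, pandas 2.3.3 and scipy 1.17.1. The fits were tested on simulated data.

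Symbols came from the platform annotation, and a gene's brightest probe set stands for it in lists and likeness. All members were named, as were the 5 genes most like each member. Of the called genes of the lists only some were named (at most 6 per comparison), not always those with the largest change. Members and lists were chosen with earlier results of these data known. Deviations of same-numbered arrays from their group means correlated at -0.0978 to 0.0695 (18 pairs), so replicate numbers were not taken to pair samples. Alternatives varied the added value, filter, probe sets averaged per gene, normalization, block, samples, quality covariate and arrays. The number of arrays limits the precision.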

Additional observations from a re-analysis of the deposited data

Results flagged for a closer look

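By 2 of its 3 probe sets, PRRX1 values with RA did not overlap those without it, in opposite directions without and with Noggin. Of all probe sets tested, 5.44% had all arrays with RA alone below all controls. All Noggin+RA arrays were above all Noggin+DMSO arrays in 6 of the 8 member probe sets, so that direction was not particular to PRRX1. The share of all probe sets with that direction is not given, and the share that showed both directions was not counted. By the brightest, all 3 RA arrays were below all 3 controls, and all 3 Noggin+RA arrays were above all 3 Noggin+DMSO arrays, a difference of 1.16 between the log2 changes (limma adjusted p of the interaction = 0.473). By the probe set with the largest Noggin fall the same held, with a difference of 1.87 (limma adjusted p = 0.31). The test of the difference itself therefore did not pass for either. The remaining probe set, where Noggin+RA and Noggin+DMSO arrays overlapped, gave a difference of 1.13 (limma adjusted p = 0.655).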

How the results depend on the processing

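Of 1344 values of member probe sets under other settings, 1243 kept their direction and side of the threshold, 80 lost and 8 gained a call, and 13 changed sign. Most of these values belong to differences not called in the main fit, which had no call to lose. The 1243 therefore do not measure how stable the calls were. Member calls with Noggin alone (5) and for average Noggin (5) went to 0 with the GAPDH ratio as a covariate (PRRX1 -2.05, limma adjusted p = 0.495), whose Noggin and Tris values do not overlap. Leaving out 1 array gave 5 to 5 for both. Calls of Noggin+RA against the control (3) went to 0 with only the groups compared and 0 with the covariate, and to 0 to 4 without 1 array. Those of Noggin+RA against Noggin+DMSO (3) went to 1 with the replicate block, 0 without the filter, 0 with only the groups compared, 0 with the covariate, 1 where 1 in place of 16 was added, and 0 to 3 without 1 array. Average RA calls were 2 to 3 throughout. The GAPDH difference between bead kinds was -0.129 to -0.105 without 1 array, while the EF1A ratio differed by -0.0720 (exact permutation p = 0.0281) and the actin ratio by -0.0353 (exact permutation p = 0.182). List counts, also recomputed after seeing the data, went to 0 with Noggin alone with the covariate for all 5 lists.

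Replicate numbers did not pair the arrays, and the block ended the calls of PRRX1 with both factors (adjusted p = 0.0826), ALX1 and PRRX2 against Noggin alone (0.0745 and 0.0838) and PRRX2 for average RA (0.0668). Signs turned with the covariate for ALX1 (0.20 with Noggin alone, 0.42 for average Noggin) and PRRX2 with both factors (0.13). With 1 array left out, ALX1 average Noggin ranged from -0.19 to 0.094 and was above 0 without Noggin+RA replicate 2 or the second Tris+RA array. The dimmer PRRX2 probe set with RA ranged from -0.13 to 0.35, below 0 without Tris+RA replicate 2 (-0.026) or the first control. The dimmer PITX1 probe set with both factors ranged from -0.057 to 0.43, below 0 without Noggin+RA replicate 1 (-0.04) or the first control. For the interaction it ranged from -0.39 to 0.11, above 0 without Noggin+RA replicate 2 (0.08), Noggin+DMSO replicate 3 (0.01), the second Tris+RA array (0.11) or the first control (0.11). None of these was called, and the cause was not tested.

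Median centring moved the median of all probe sets by -0.17 with Noggin alone, -0.10 with both factors, -0.12 for Noggin+RA against Tris+RA and -0.15 for average Noggin, where both PITX1 probe sets were then called (-0.48 and -0.70, limma adjusted p = 0.0310 and 0.0350). Counts over all probe sets, recomputed under the same settings after seeing the data, were 1058 with Noggin alone (0 to 1839), 173 with both factors (2 to 305), 46 for Noggin+RA against Tris+RA (0 to 74), 95 against Noggin+DMSO (1 to 155), 175 for average RA (46 to 239) and 2400 for average Noggin (0 to 3531), and 0 for RA alone (0 to 21) and for the interaction (0 to 1).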
